A study of Mus musculus with 12 samples.

Results

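The genes described are Hmgcs1, Idi1, Fdft1, Sqle, Lss, Insig1 and Srebf2, 7 genes of cholesterol synthesis and its control, taken by their symbols from the 34906 symbols that the deposited count tables of mouse lung list in all. None of the 7 is itself an uptake receptor. They comprise 5 enzymes and 2 regulators. Values could be read for 6 of the 7. Hmgcs1 is not a row of the RNase III set's tables under that symbol, it stands at 0 reads in the 6 libraries of the other set, and the symbol is not in GENCODE mouse release 1, the annotation whose symbols include every row of the RNase III tables and 95.7% of those of the knockout tables. Its level in lung is therefore not analysed here, and the cause of the zeros was not tested.

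Cells make cholesterol from acetyl-CoA through the mevalonate pathway, and take it up as lipoprotein through receptors at the cell surface. When sterol in the endoplasmic reticulum is low, the escort protein Scap carries the SREBP-2 precursor, the product of Srebf2, to the Golgi, where it is cut, and the released factor enters the nucleus and raises transcription of the synthesis enzymes, of Insig1 and of Srebf2 itself. When sterol is high, Insig proteins hold Scap and the precursor in the endoplasmic reticulum. In the lung, alveolar type 2 cells make the lipids of surfactant, which contains cholesterol, and alveolar macrophages clear them.

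SREBP-2 acts through sterol regulatory elements, usually with the CCAAT-binding factor NF-Y or with Sp1 close by, so the 250 bases before the start sites of 3 of the genes are shown first. They come from RefSeq on GRCm38.p6, which had an entry for 5 of the 7 genes (Insig1, Lss, Idi1, Hmgcs1 and Srebf2). Each is printed 5′ to 3′ on the gene's plus strand. Capitals mark TCACCCCA, a known core of the sterol regulatory element, and ATTGG, the CCAAT box read on the opposite strand. Srebf2 and Hmgcs1 are shown because both carry TCACCCCA, and Insig1 because it does not.
Srebf2, chr15:82147019-82147268: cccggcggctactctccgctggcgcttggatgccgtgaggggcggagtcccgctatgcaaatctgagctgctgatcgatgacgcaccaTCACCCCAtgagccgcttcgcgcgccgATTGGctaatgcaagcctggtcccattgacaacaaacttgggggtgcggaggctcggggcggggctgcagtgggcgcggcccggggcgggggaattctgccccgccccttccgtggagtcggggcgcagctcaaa
Hmgcs1, chr13:119690101-119690350: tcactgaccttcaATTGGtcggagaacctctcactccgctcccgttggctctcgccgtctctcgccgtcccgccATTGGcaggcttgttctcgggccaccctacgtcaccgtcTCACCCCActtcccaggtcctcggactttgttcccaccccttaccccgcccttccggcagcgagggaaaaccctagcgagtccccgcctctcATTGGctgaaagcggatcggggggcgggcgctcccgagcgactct
Insig1, chr5:28071162-28071411: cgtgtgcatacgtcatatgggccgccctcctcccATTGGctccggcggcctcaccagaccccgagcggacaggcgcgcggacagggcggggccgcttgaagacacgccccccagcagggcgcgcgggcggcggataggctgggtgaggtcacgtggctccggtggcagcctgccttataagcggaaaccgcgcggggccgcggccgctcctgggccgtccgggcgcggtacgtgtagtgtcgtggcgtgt

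The match in Srebf2 covers positions -162 to -155 from the start site, and a CCAAT box follows at -135 to -131. In Hmgcs1 the match covers -137 to -130, with CCAAT boxes at -237 to -233, -176 to -172, -45 to -41 and 11 to 15, the last of them after the start site and outside the printed window. Insig1 has 1 CCAAT box at -216 to -212, Lss has 1 at -62 to -58 and Idi1 has them at -45 to -41 and -14 to -10. Searched on both strands over the 300 bases from 250 before to 50 after the start, TCACCCCA was in 2 of these 5 promoters and in 1.56% of all 32851 promoters. The looser TCACNCCA, which includes it, was in the same 2 promoters and in 4.36% of all. CCAAT was in 5 of 5 and in 37.4% of all. Among 16 promoter entries of 13 other cholesterol synthesis enzymes the counts were 0, 1 and 12. These are matches of letters and not mapped binding sites.

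RNA was from whole lung of mice of the B6 background, 6 to 8 weeks old, sampled 14 to 16 h after phosphate-buffered saline (PBS) or an extract of the house dust mite D.f. The RNase III set had wild-type mice with PBS (2 libraries), D.f. extract (2 libraries) or D.f. extract with RNase III (2 libraries), an enzyme that cuts double-stranded RNA. The knockout set had wild-type mice and TLR3MAVS double-knockout mice, which lack a receptor and an adaptor of double-stranded RNA sensing, with PBS (1 library per genotype) or D.f. extract (2 libraries per genotype). The labels do not say whether a library is 1 mouse or a pool, nor how the knockouts were made, and the spread that the p-values rest on may thus be technical.

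Between 15687699 and 25714074 reads per library were assigned to genes. The limit a count of 0 allows, 3 reads, was thus worth 0.119 to 0.189 CPM, a unit that scales counts by library size. This limit, and the intervals of ratios between 1 library each, cover counting error only. Intervals of log2 fold changes come from edgeR's fit and include its estimate of the spread between libraries. Tlr3 read 42.4 to 156 CPM in the 3 wild-type libraries of the knockout set and 10.04 to 14.8 in the 3 double-knockout libraries, and Mavs 32.2 to 36.4 against 2.35 to 3.09. The summed CPM of 8 interferon-stimulated genes was 2652 to 4541 in the 4 wild-type libraries with untreated extract and 62.3 to 265 in the other 8. Alveolar type 2 cell markers (10 of 10 listed, summed CPM 9785 to 18104), endothelial markers (6 of 6, 2084 to 3822) and fibroblast markers (8 of 8, 3092 to 5818) were present in every library, with no marker of these 3 lists at 0. The PBS pair of the RNase III set stood apart in other tissue: adipose markers summed to 9.44 CPM in replicate 1 and 160 in replicate 2, and cardiac markers to 124 and 1249. Over all genes these 2 libraries also differed the most of the 5 replicate pairs, with a chi-square per degree of freedom of 46.6 against 7.33 to 34.3, and no pair agreed within sampling noise. In whole tissue, fewer cells of a type and less RNA per cell cannot be told apart.

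Idi1, isopentenyl-diphosphate isomerase, makes the allylic unit from which longer isoprenoids are built (NCBIM37, chromosome 13, 8884852 to 8891641, plus strand). It was the most thinly counted of the 6, with 26 to 68 reads per library. In the RNase III set it read 2.60 and 2.40 CPM with PBS, 2.69 and 2.66 with D.f., and 2.15 and 3.48 with D.f. and RNase III. The knockout set gave 1.48 with PBS and 2.71 and 2.58 with D.f. in wild type, and 2.21 with PBS and 2.76 and 2.70 with D.f. in the double knockout. In the RNase III set the highest and the lowest library were the 2 replicates of D.f. with RNase III, and in the knockout set the wild-type PBS library stood lowest.

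Fdft1, squalene synthase, commits isoprenoids to sterols (chromosome 14, 63763990 to 63796630, minus strand). It read 13.4 and 28.4 CPM with PBS, 24.8 and 22.5 with D.f. and 18.9 and 23.3 with D.f. and RNase III, so both other groups lay between the PBS libraries. Wild type of the knockout set read 22.0 with PBS and 26.2 and 23.2 with D.f., and the double knockout 14.7 with PBS and 21.7 and 20.04 with D.f. The double-knockout PBS library was the lowest of that set. Fdft1 overlaps Ctsb in the annotation, on the opposite strand, as Lss does the lincRNA 4930483K19Rik, and Srebf2 holds the microRNA Mir33, and reads of overlapping genes could not be told apart.

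Sqle, squalene epoxidase, carries out the first oxygen-requiring and a rate-limiting step of sterol synthesis (chromosome 15, 59146632 to 59162747, plus strand). It read 43.5 and 68.3 CPM with PBS, 75.1 and 66.8 with D.f. and 54.1 and 82.7 with D.f. and RNase III. Among the knockout-set libraries, wild type read 54.5 with PBS and 64.8 and 68.8 with D.f., and the double knockout 32.5 with PBS and 54.0 and 53.6 with D.f. Both D.f. libraries of a genotype lay above its PBS library, and the double-knockout D.f. libraries lay just below the wild-type PBS library.

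Lss, lanosterol synthase, closes the sterol rings (chromosome 10, 75994333 to 76019883, plus strand). It read 39.2 and 67.8 CPM with PBS, 49.4 and 54.1 with D.f. and 48.8 and 76.2 with D.f. and RNase III, with all 3 groups overlapping. Wild type of the knockout set read 32.2 with PBS and 34.6 and 31.6 with D.f., and the double knockout 20.2 with PBS and 30.7 and 35.1 with D.f. Here a single library, double knockout with PBS, stood below the other 5.

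Insig1, which retains Scap in the endoplasmic reticulum and is itself a target of SREBP-2, is at chromosome 5, 28397952 to 28405201, plus strand. It read 45.8 and 72.5 CPM with PBS, 49.1 and 50.8 with D.f. and 56.4 and 71.7 with D.f. and RNase III. Among the knockout-set libraries, wild type read 58.2 with PBS and 50.4 and 54.5 with D.f., and the double knockout 40.0 with PBS and 57.9 and 45.2 with D.f. It was the 1 gene of the 6 whose wild-type D.f. libraries lay below the PBS library of the knockout set.

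Srebf2, the gene of SREBP-2 itself, is at chromosome 15, 81977696 to 82035806, plus strand. It read 165 and 206 CPM with PBS, 203 and 210 with D.f. and 166 and 207 with D.f. and RNase III. In the knockout set wild type read 218 with PBS and 228 and 226 with D.f., and the double knockout 176 with PBS and 215 and 185 with D.f. Its largest ratio between any replicates, 1.25, was the smallest such ratio of the 6 genes, and its low libraries in the RNase III set were 1 of the PBS pair and 1 of the RNase III pair.

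**Figure D1:**
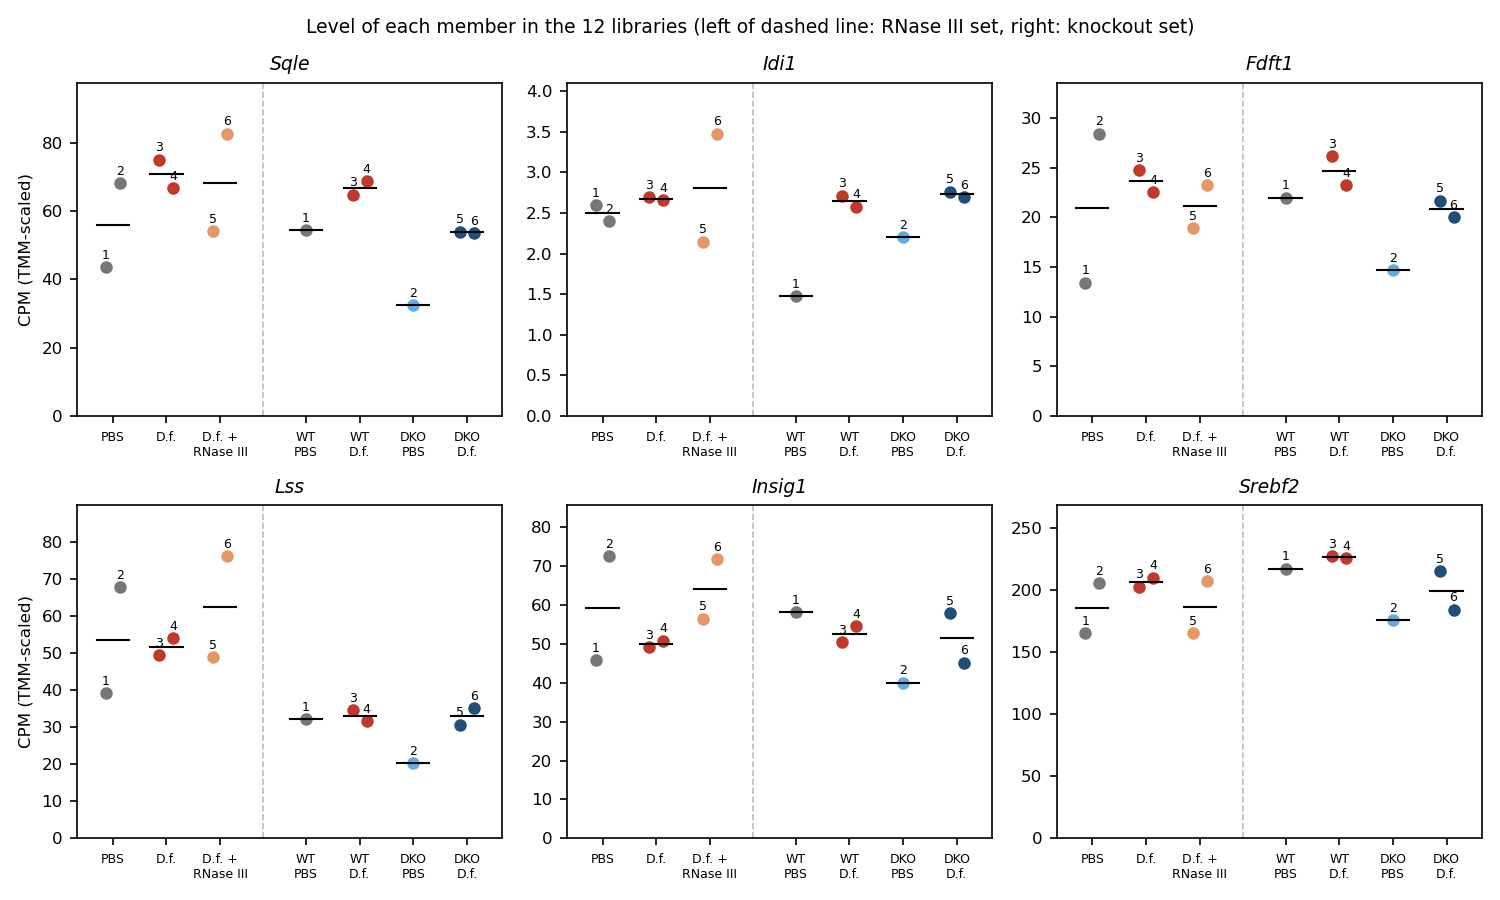
Level of each of the 6 genes (the members) in the 12 libraries, in CPM on axes that start at 0, with 1 point per library, a bar at each group mean and the replicate number beside the points. The PBS and the D.f. with RNase III pairs of the RNase III set are spread widely in most panels, for example 13.4 and 28.4 CPM for Fdft1, and the double-knockout PBS library is the lowest of the knockout set for each gene except Idi1.

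The 6 genes did not pass the threshold, a Benjamini-Hochberg adjusted p under 0.05 over all genes tested by edgeR's quasi-likelihood test, in any of 8 comparisons, and DESeq2 called none of them either. In the RNase III set, D.f. extract against PBS, which asks how wild-type lung responds to the mite extract, called 0 of 6 genes where 11.0% of all 17165 genes were called. The log2 fold changes ran from -0.25 for Insig1 to 0.34 ± 0.26 (SE) for Sqle, with a median of 0.13 beside -0.01 over all genes. Srebf2 changed by 0.15 ± 0.16, and the adjusted p of the 6 ran from 0.463 to 0.938. An unadjusted p under 0.05 was seen for 0 of the 6 and for 25.6% of all genes. The 95% intervals of the 6 reached up to 1.93-fold higher and 1.71-fold lower. Idi1 was the 1 gene whose D.f. libraries both lay above both PBS libraries, a state that 25.6% of all genes shared. Without PBS replicate 2, Fdft1 was called, at a log2 fold change of 0.82 and an adjusted p of 0.0205, in a fit that called 3071 of 17491 genes, and over its 10 alternatives the adjusted p ran up to 0.941. Without PBS replicate 1 its sign turned, to -0.26.

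D.f. extract with RNase III against D.f. extract asks what the double-stranded RNA of the extract adds. It called 0 of 6 genes, against 7.26% of all, and 0 of the 6 had an unadjusted p under 0.05, beside 22.2% of all genes. Insig1 read highest, at 0.36 ± 0.22 with an adjusted p of 0.404, and both of its libraries with RNase III lay above both with extract alone, as 29.9% of all genes did. Lss read 0.27, Idi1 0.07, Sqle -0.05, Srebf2 -0.15 and Fdft1 -0.16, and the widest intervals reached 1.93-fold higher and 1.87-fold lower. D.f. with RNase III against PBS, which shares libraries with both comparisons above, also called 0 of 6, where 0.00583% of all genes, a single gene, were called. Here 0 of 6 had an unadjusted p under 0.05, beside 4.86% of all genes. All 6 genes had overlapping libraries there, and their log2 fold changes lay between 0.01 and 0.29.

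In the knockout set, D.f. against PBS in wild type called 0 of 6 genes, where 1.52% of all 15294 genes were called. Sqle read 0.29 ± 0.11 and Idi1 0.84 ± 0.32, the 2 genes with an unadjusted p under 0.05, with adjusted p of 0.268 and 0.280. Of all genes, 17.1% had an unadjusted p under 0.05. Fdft1 read 0.17, Srebf2 0.06, Lss 0.04 and Insig1 -0.15. The fit takes the 1 PBS library to be as variable as the groups with 2. Against it, 4 genes had both D.f. libraries above and 1 had both below, states that 42.4% and 40.8% of all genes showed. In a fit to the 7 wild-type libraries of both sets that allows for the set, 0 of 6 genes were called, while 15.1% of 14953 genes were. An unadjusted p under 0.05 was seen for 30.4% of all genes and for 0 of the 6. The closest was Sqle, at 0.32 ± 0.15 with an adjusted p of 0.206. Sqle was called there only when PBS replicate 2 of the RNase III set was left out, at 0.47 with an adjusted p of 0.0430, the lowest of 10 alternatives that ran up to 0.425.

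Of the 6 genes, Sqle had the highest D.f. value in the double knockout, at 0.73 ± 0.11 against PBS, followed by Lss at 0.70 ± 0.15, Fdft1 at 0.51 ± 0.15, Insig1 at 0.37 ± 0.18, Idi1 at 0.31 ± 0.31 and Srebf2 at 0.18 ± 0.13. None was called, with adjusted p of 0.819 to 0.864, in a comparison where edgeR called 0% of the 15294 genes tested, 847 had an unadjusted p under 0.05 and DESeq2 called 37. Sqle (unadjusted p = 9.361e-04), Lss and Fdft1 were the 3 of the 6 with an unadjusted p under 0.05, where 5.54% of all genes had one. Both D.f. libraries lay above the PBS library for 6 of 6 genes, and 33.3% of all genes showed this. The PBS level rests on 1 library, the one described below as low for these genes. Without double-knockout D.f. replicate 5, Sqle and Lss were called (adjusted p 1.576e-04 and 2.650e-04), and without replicate 6, Sqle, Lss and Insig1 (0.00241, 0.0486 and 0.0295). Those fits rest on 1 residual degree of freedom, from the wild-type D.f. pair, and called 2092 and 266 genes in all. For Sqle the adjusted p ran up to 1 over its 9 alternatives.

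Double knockout against wild type, both with D.f., called 0 of 6 genes, against 2.53% of all. Sqle read -0.31 ± 0.09 (unadjusted p = 0.0138, adjusted p = 0.151), the 1 gene of the 6 with an unadjusted p under 0.05, which 18.2% of all genes had. Its 4 libraries did not overlap, at 54.0 and 53.6 CPM in the double knockout and 64.8 and 68.8 in wild type. Fdft1 read -0.24 and Srebf2 -0.18, also without overlap, a state that 25.6% of all genes showed, and Insig1 read -0.03, Lss -0.01 and Idi1 0.04. Without double-knockout D.f. replicate 5, Sqle and Srebf2 were called, with adjusted p of 0.0316 and 0.0365, which were the lowest over 10 alternatives each, in a fit that called 3048 of 15219 genes against 387 with all libraries. The test of whether the D.f. response differed between genotypes called 0 of 6, against 0.00654% of all, with adjusted p of at least 0.375. Lss (0.66 ± 0.20) and Sqle (0.43 ± 0.15) were the 2 of 6 with an unadjusted p under 0.05, which 9.68% of all genes had. Lss was called there without double-knockout D.f. replicate 5 (0.00789) and Insig1 without replicate 6 (0.00868), in fits that called 1666 and 1238 genes in all.

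**Figure D2:**
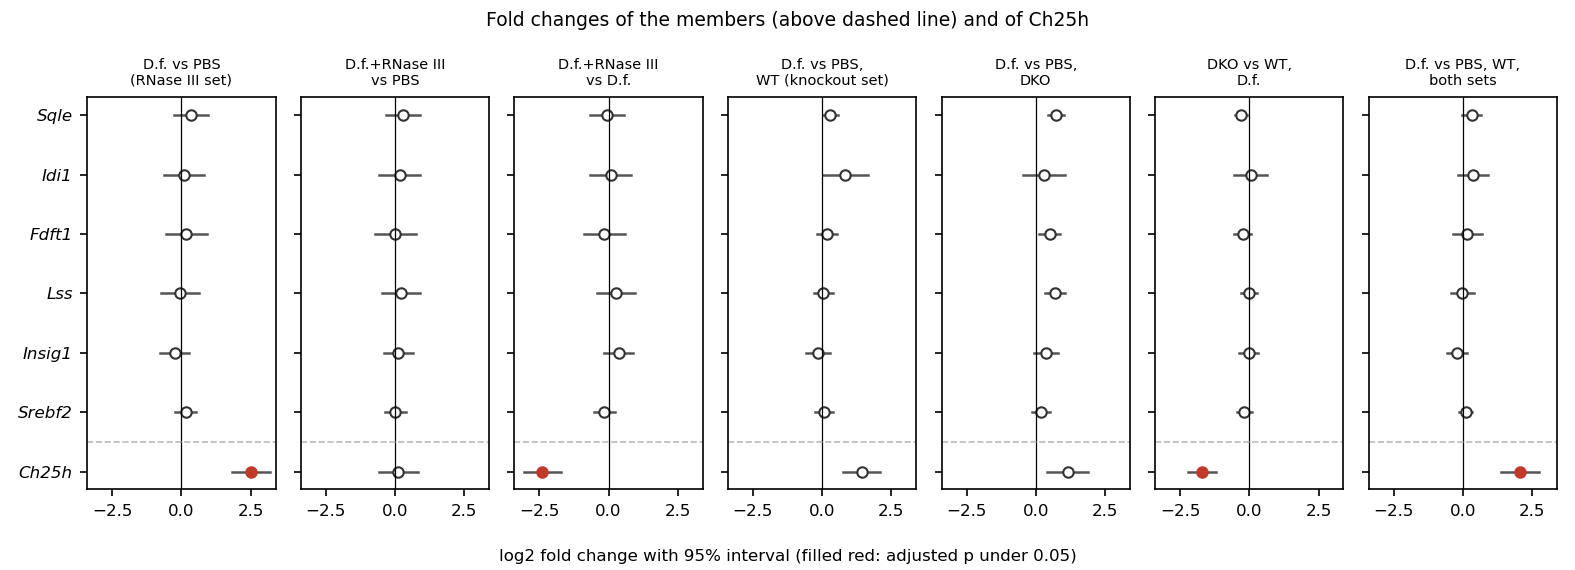
Log2 fold change (x axis) of the 6 genes, the members, and below a dashed line of Ch25h, in 7 comparisons, with lines for the 95% interval of edgeR's fit, filled red points for called genes and open points for the rest. Each of the 6 genes is open in each panel, all 6 lie to the right of 0 for D.f. against PBS in the double knockout, from 0.18 to 0.73, and Ch25h is filled in 4 panels.

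Replicate libraries of 1 group differed in the 6 genes. In the PBS pair of the RNase III set, 5 of 6 genes were higher in replicate 2, with a median ratio of 1.58 to replicate 1 and a highest of 2.12 for Fdft1. Over all genes the median was 0.994, and 49.2% were higher in replicate 2. Of 14 other enzymes of the pathway, 13 were higher in replicate 2 and 12 by over 1.25-fold, a step in the same direction that 23.8% of all genes showed. Of 10 fatty acid synthesis genes, 8 took that step too, and the median ratio of the 10 was 1.56. In the pair with D.f. and RNase III, 6 of 6 genes were higher in replicate 6, with a median ratio of 1.40. So were 13 of 14 other enzymes, 10 of 10 fatty acid synthesis genes and 50.2% of all genes. The D.f. pair of the same set had a median ratio of 1.01. Summed alveolar type 2 markers were 10878 and 17206 CPM in PBS replicates 1 and 2, in the same order as the 6 genes, and 18104 and 14966 in RNase III replicates 5 and 6, in the opposite order. Adipose markers followed the first order too (9.44 and 160 CPM) and not the second (13.2 and 8.13), as did macrophage, monocyte and cardiac markers. Neutrophil markers followed both orders (42.1 and 95.5 CPM, then 72.7 and 108). Endothelial markers also followed both (2595 and 3110, then 2743 and 2766). Fibroblast markers and interferon-stimulated genes followed neither. The part of these cells in the differences was not tested.

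In the knockout set the library that stood low was the double knockout with PBS. Against the wild-type PBS library, with 1 library per genotype and no test, 5 of 6 genes read lower, at a median ratio of 0.678 beside 1.02 over all genes. Among all genes, 46.0% read lower. Sqle had a ratio of 0.597 (95% interval from counting error alone 0.535 to 0.665), Lss 0.629, Fdft1 0.669, Insig1 0.687 and Srebf2 0.809 (0.770 to 0.850). Idi1, with 35 and 26 reads, had 1.49 (0.872 to 2.58). Of the 14 other enzymes 12 read lower, with a median ratio of 0.844. So did 8 of 10 fatty acid synthesis genes, with a median ratio of 0.940. None of the 6 was past 2-fold, where 6.64% of all genes were. Summed alveolar type 2 markers were at 13040 CPM in wild type and 13776 in the double knockout. Markers of other tissue and cells differed more: cardiac markers summed to 710 CPM in wild type and 98.1 in the double knockout, adipose markers to 27.2 and 8.07, and neutrophil markers to 31.0 and 118. Their part in the lower values was not tested. Genotype and library cannot be told apart in this pair.

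**Figure D3:**
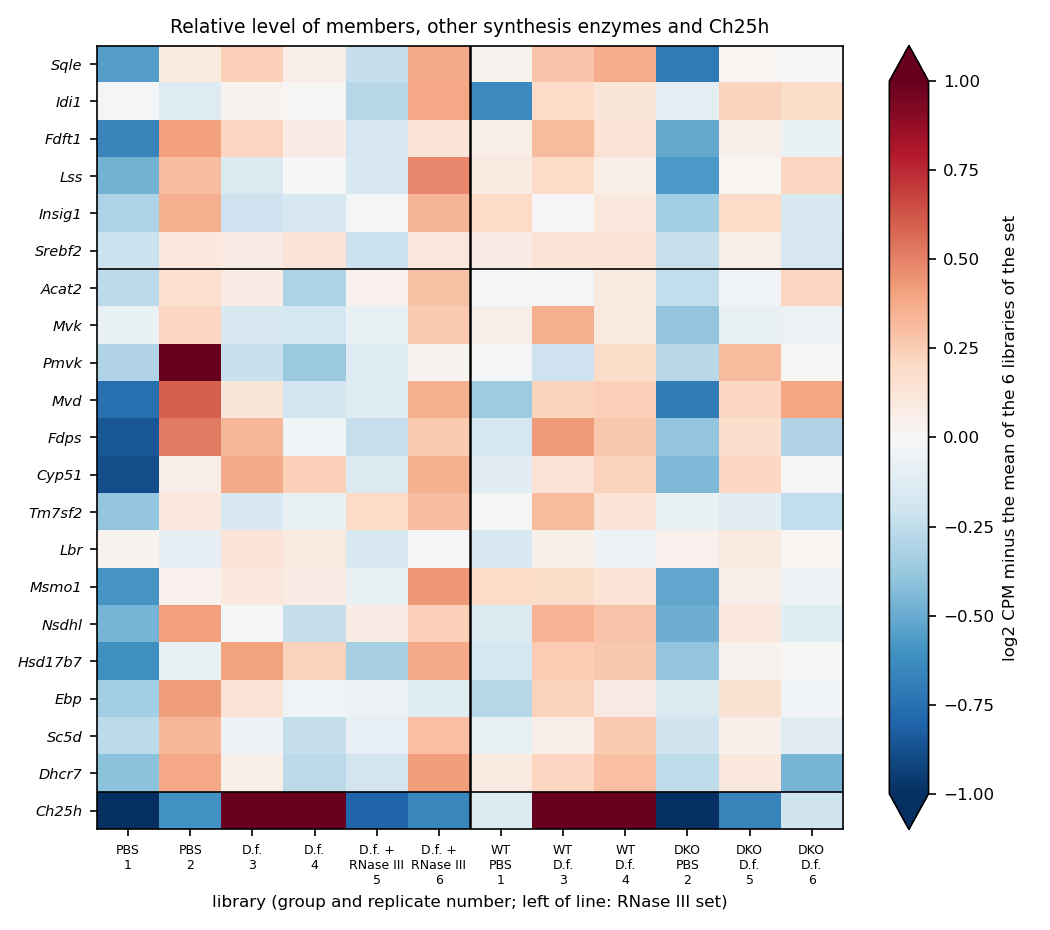
Level of each gene in each library relative to the mean of its set, on a log2 scale capped at 1 either way, for the 6 genes (the members), 14 other cholesterol synthesis enzymes and Ch25h. PBS replicate 1 and RNase III replicate 5 of the RNase III set and the double-knockout PBS library are columns of mostly low values.

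Of the 6 genes, 5 varied together across libraries, and Idi1 followed them weakly. Over the 12 libraries, centred within each set, 15 of 15 pairs of the genes had a positive Pearson r, with a median of 0.67. The 5 pairs with Idi1 ran from 0.018 to 0.36, with a median of 0.22, and the lowest was -0.057 without the 2 libraries named next. The 10 pairs without the thinly counted Idi1 ran from 0.61 to 0.89, with a median of 0.80, and fell to a median of 0.44 (0.20 to 0.77) without the 2 libraries farthest from the median level, the double-knockout PBS library and PBS replicate 1 of the RNase III set. These points share library depth and tissue makeup, so the values describe these libraries and carry no p.

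The genes most like the 6 were found by Pearson r with their mean standardised level over the same 12 libraries, among 13133 other genes whose mean log2 CPM was 1 or higher. The leading gene of these was Msmo1 (r of 0.91), listed as Sc4mol, which starts the removal of methyl groups from the sterol ring. Fdps (0.87), which makes farnesyl diphosphate, Mvd (0.86), which decarboxylates mevalonate diphosphate, the demethylation enzymes Nsdhl (0.85) and Cyp51 (0.85), and Hsd17b7 (0.84), a reductase of the sterol ring, were also among the first 10. The other 4 were Scube3 (0.89), Rfx2 (0.87), Exosc1 (0.85) and Gm166 (0.83). So 6 of the 10 were synthesis enzymes from the list of 14. The order rests in part on the double-knockout PBS library and PBS replicate 1 of the RNase III set: without them Scube3 had 0.97, Fdps 0.78, Msmo1 (Sc4mol) 0.72, Rfx2 0.68, and the other 6 between 0.62 and 0.65.

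The 14 other enzymes had a median r of 0.80 with the 6 genes, all 14 were positive, and 9 exceeded 0.7, as 0.883% of all genes compared did. Without the same 2 libraries the median was 0.64, and 4 exceeded 0.7, against 0.381% of all. Fatty acid synthesis genes, many of them targets of the related SREBP-1, had a median of 0.61. Uptake and intracellular cholesterol genes spread from Mylip, a ligase that degrades lipoprotein receptors, at -0.55 up to Npc2 at 0.46, with a median for the list of 0.14. SREBP regulators had a median of 0.19 and oxysterol, efflux and esterification genes 0.03.

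**Figure D4:**
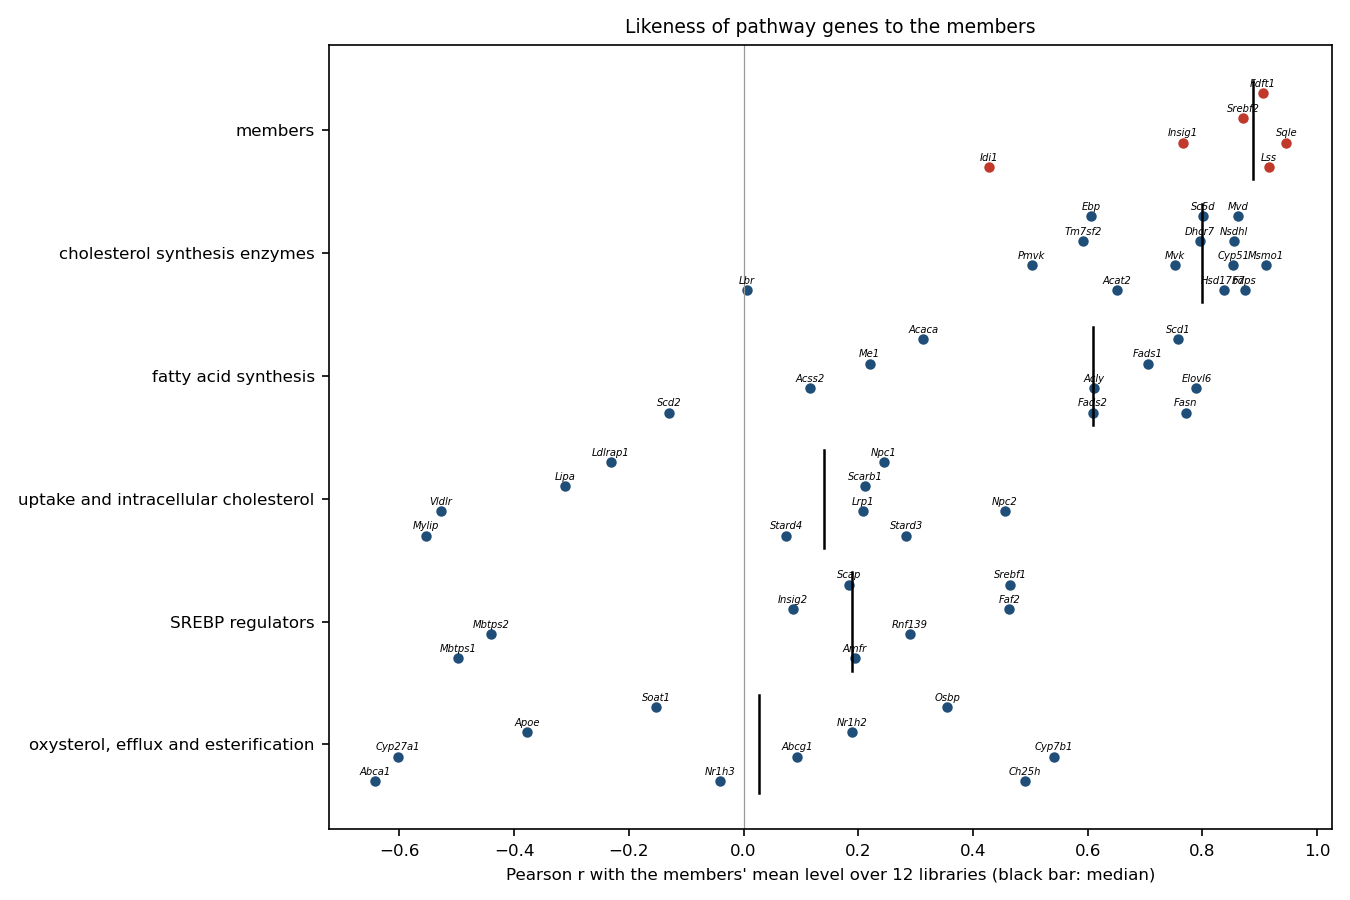
Pearson r of each gene with the mean level of the 6 genes over 12 libraries centred within their sets, 1 point per gene, in rows by list (the 6 genes are the members), with a black bar at each list's median. The 14 other synthesis enzymes have a median of 0.80 and run up to 0.91, with Lbr near 0, and the uptake genes run up to 0.46.

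Of the 14 other enzymes, 0 were called by edgeR in the comparisons within a set, where 0% to 11.0% of all genes were, and 1 of 14 over both sets, where 15.1% of all genes were called and 9.18% rose. This was Hsd17b7, which rose by 0.55 ± 0.14 on the log2 scale (adjusted p = 0.0393), a call that 5 of the 7 single libraries could end when left out.

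The regulators Srebf1, Insig2 and Scap were not called in any comparison, with log2 fold changes between -0.30 and 0.22 over the 8 comparisons and adjusted p of at least 0.325. For the double knockout against wild type with D.f., Srebf1 read -0.49 without double-knockout D.f. replicate 5, beside -0.30 with all libraries. That fit leaves 1 double-knockout D.f. library and has 1 residual degree of freedom. Over its 10 alternatives the value ran from -0.49 to -0.13.

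Calls in the wider lists of related genes were about as frequent as over all genes. With D.f. in the RNase III set, 6 of 53 related genes were called against PBS, beside 11.0% of all. Of these 3 rose, beside 6.51% of all genes, and 3 fell, beside 4.50%. Ch25h, which makes 25-hydroxycholesterol, an oxysterol that blocks SREBP processing, rose by 2.51 ± 0.29 (adjusted p = 0.00256). It read 5.19 and 7.64 CPM with PBS, 45.9 and 27.7 with D.f. and 6.66 and 7.38 with D.f. and RNase III, so the D.f. pair stood clear of the other 4 libraries. In the knockout set it read 9.05 with PBS and 26.6 and 22.1 with D.f. in wild type, and 3.34 with PBS and 6.22 and 8.64 with D.f. in the double knockout. Ch25h fell by 2.39 ± 0.29 with RNase III against D.f. alone (adjusted p = 0.00415) and by 1.71 ± 0.21 in the double knockout against wild type with D.f. (0.0261). With PBS it already read lower in the double knockout, at a ratio of 0.369 (0.265 to 0.507, counting error alone) between 1 library each. Its D.f. value in the double knockout was 1.15 ± 0.30 (not called), and the test of a difference in D.f. response between genotypes gave -0.28 ± 0.39 (adjusted p = 0.908). Its D.f. value in wild type of the knockout set, 1.43, was not called by edgeR and was called by DESeq2 (0.00470) and without the filter on low counts (0.0461).

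Cyp7b1, which hydroxylates oxysterols including 25-hydroxycholesterol, rose by 1.54 ± 0.32 with D.f. (adjusted p = 0.0237), from 5.58 and 6.11 CPM to 20.1 and 14.0. Npc2, which moves cholesterol out of lysosomes, rose by 0.91 ± 0.15 (0.00987) and fell by 0.88 ± 0.15 with RNase III against D.f. alone (0.0149). Stard3, a sterol carrier between endosomes and other membranes, fell by 0.56 ± 0.12 with RNase III (0.0374) and by 0.63 ± 0.09 in the double knockout against wild type (0.0352). Falls with D.f. were seen for Vldlr, a lipoprotein receptor, by 1.26 ± 0.23 (0.0145), for the lipid carrier Apoe by 0.72 ± 0.15 (0.0229) and for the desaturase Scd2 by 0.92 ± 0.21 (0.0338). Vldlr and Scd2 rose with RNase III against D.f. alone, by 1.11 ± 0.23 (0.0303) and 0.93 ± 0.21 (0.0408). That comparison had 5 calls of 53: 2 rose, beside 2.41% of all genes, and 3 fell, beside 4.85%. In the double knockout against wild type with D.f., 2 of 53 fell, beside 2.01% of all genes.

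Markers of alveolar macrophages, which carry much lipid, changed beside these calls: 3 of 9 fell with D.f. in the RNase III set, where 4.50% of all genes fell, and their summed level was 934 and 982 CPM with PBS, 556 and 291 with D.f. and 653 and 554 with D.f. and RNase III. Fibroblast markers fell in 4 of 8, endothelial markers in 1 of 6, and neutrophil markers rose in 2 of 6, where 6.51% of all genes rose. Inflammatory monocyte markers rose in 2 of 5, and the 1 that fell, Chil3, is also on the macrophage list. Alveolar type 2 markers were called in 0 of 10. With RNase III against D.f. alone, 2.41% of all genes rose and 4.85% fell. There macrophage markers rose in 2 of 9, fibroblast markers in 2 of 8 and endothelial markers in 1 of 6. Neutrophil markers fell in 1 of 6 and monocyte markers in 1 of 5, and 0 of 10 alveolar type 2 markers were called. All 8 cardiac markers had lower values there, with 0 called. In the double knockout against wild type with D.f., 2.53% of all genes were called and 2.01% fell. Macrophage markers rose there in 2 of 8, cardiac markers fell in 2 of 7 and fibroblast markers fell in 1 of 8. Of 5 monocyte markers, 1 rose and 1 fell. Called were 0 of 10 alveolar type 2, 0 of 6 endothelial and 0 of 6 neutrophil markers. All 7 cardiac markers had lower values and an unadjusted p under 0.05, which 18.2% of all genes had. In the fit to the 7 wild-type libraries of both sets, 9.18% of all genes rose with D.f. and 5.89% fell. Alveolar type 2 markers rose there in 2 of 10, neutrophil markers in 2 of 6 and monocyte markers in 2 of 5. Macrophage markers fell in 3 of 9, fibroblast markers in 3 of 8 and monocyte markers in 1 of 5. Endothelial and adipose markers fell in 1 of 6 each, and 0 of 8 cardiac markers were called. The part of these cells in the pathway calls was not tested.

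Over the 7 wild-type libraries of both sets, 9 of 52 related genes were called, 6 rising beside 9.18% of all genes and 3 falling beside 5.89%. The rises were in Ch25h (2.07 ± 0.29), Cyp7b1 (1.29 ± 0.21), Npc2 (0.90 ± 0.12), Rnf139 (0.56 ± 0.11), Hsd17b7 and Stard3 (0.52 ± 0.10), and the falls in Vldlr (-1.07 ± 0.17), Scd2 (-0.73 ± 0.15) and Apoe (-0.61 ± 0.12), with adjusted p of 0.00210 to 0.0393. Rnf139 is a ligase of the endoplasmic reticulum that turns over sterol-pathway proteins. These libraries include those of the RNase III set above. Ch25h, Cyp7b1, Npc2 and Vldlr were called with each of the 7 libraries left out in turn. Within the RNase III set Ch25h alone kept its D.f. call with each of the 6 left out. The others there lost it without D.f. replicate 3 or without replicate 4, each of which left 1 call of 53; Apoe also lost it without either RNase III library and Scd2 without PBS replicate 1. With RNase III against D.f. alone, 0 calls were left without replicate 5 or replicate 6 of the RNase III libraries and 1 without either D.f. replicate. Both calls of the double knockout against wild type ended without wild-type D.f. replicate 3 or 4, in fits that called 7 and 17 genes in all, at folds of similar size (Ch25h -1.57 and -1.84, Stard3 -0.60 and -0.67). In the remaining comparisons within a set 0 of 53 related genes were called by edgeR, where the background was 0.00583% for D.f. with RNase III against PBS, 1.52% for wild type, 0% for the double knockout and 0.00654% for the interaction.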

How the data were processed

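Counts per gene were deposited by the authors for 12 mouse lung libraries, 1 table each, as whole-number raw counts with no normalization. Reads were mapped to mm9 with TopHat2 2.0.8b and counted with HTSeq, and bcl2fastq is also named, per the submitters' processing notes. The strand setting, version and annotation used for counting were not given in the sources used here, so overlapping or antisense genes cannot be told apart. Libraries were TruSeq total RNA, read 100 bases from 1 end, per the labels' protocols. Assigned reads were 23.1% to 28.2% of each table, and 36.8% to 44.6% were not uniquely aligned. There were 33924 genes in the RNase III tables and 22609 in the knockout tables, 21627 of them shared; rows that name no gene were left out. Some genes of the lists are not reported here and enter no list count or likeness, but stay in the fits.

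Groups came from the sample titles. Counts were fitted in R 4.3.3 with edgeR 4.0.16 (TMM, filterByExpr, glmQLFit and glmQLFTest, adjusted p under 0.05), each set on its 6 libraries (3 and 2 residual degrees of freedom) and wild type of both sets together with a term for the set (4). CPM use TMM-scaled library sizes. Alternatives were DESeq2 1.42.0, RLE size factors, no filter, 1 fit over 12 libraries and leaving out each library. The fits were tested on simulated data with the same spread for every gene. That test gives no power or error rate for the changes reported here, because the spread of the real libraries differs. The likeness without 2 libraries was chosen after seeing the data. Members, lists and the rule for named genes (the members, 4 always named genes, up to 4 called genes per list and comparison, and the 10 most like genes) were chosen with earlier results of these data known. Coordinates are from GENCODE mouse release 1 (NCBIM37) and promoters from RefSeq GRCm38.p6.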

Additional observations from a re-analysis of the deposited data

How the results depend on the processing

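The 6 genes kept 411 of 456 log2 fold changes on the same side of 0 and of the threshold over the alternatives, 34 turned sign and 11 became calls, each of the 11 with a library left out. No call or sign changed with RLE size factors or DESeq2 for the 6 genes. Without the filter on low counts 2 values near 0 turned sign for D.f. with RNase III against PBS, Fdft1 to -0.0047 and Srebf2 to -0.0044. In 1 fit over 12 libraries Lss turned to 0.012 for double knockout against wild type with D.f.. For D.f. against PBS in wild type of the knockout set, 3 related genes were called without the filter, where 391 of 18363 genes were. DESeq2 called 5 there and 649 of 14447 genes in all. In 1 fit over 12 libraries 2 were called, and 391 of 15469 genes in all. The main fit called 0 of 53, and 232 of 15294 genes in all. For double knockout against wild type with D.f., DESeq2 called 5, and 732 of 14803 genes in all. There the main fit called 2 of 53, and 387 of 15294 genes in all. The cause was not tested. With each library left out in turn, calls of the 6 genes numbered 0 to 1 for wild-type D.f. against PBS, RNase III set, 0 to 3 for D.f. against PBS in the double knockout, 0 to 2 for double knockout against wild type with D.f., 0 to 1 for the interaction, 0 to 1 over both sets. Calls of the related genes numbered 1 to 10 for wild-type D.f. against PBS, RNase III set, 0 to 1 for D.f. with RNase III against PBS, 0 to 9 for RNase III with D.f. against D.f., 0 to 13 for D.f. against PBS in the double knockout, 0 to 20 for double knockout against wild type with D.f., 0 to 21 for D.f. against PBS in wild type of the knockout set, 0 to 6 for the interaction, 5 to 14 over both sets. All-gene counts moved with them: without a double-knockout D.f. library 2977 to 3150 genes were called for D.f. against PBS in wild type of that set and 2479 to 3048 for double knockout against wild type, and without a wild-type D.f. library 0 and 7 to 17. In the RNase III set they were 584 to 3071 for D.f. against PBS and 146 to 2874 for RNase III with D.f. against D.f. Log2 fold changes that turned sign for wild-type D.f. against PBS, RNase III set ran, without 1 library, for Fdft1 -0.26 to 0.82, Lss -0.39 to 0.40, Insig1 -0.54 to 0.12, Insig2 -0.13 to 0.079. For D.f. with RNase III against PBS they ran for Sqle -0.054 to 0.65, Idi1 -0.22 to 0.48, Fdft1 -0.43 to 0.65, Lss -0.14 to 0.67, Insig1 -0.18 to 0.48, Srebf2 -0.17 to 0.17, Ch25h -0.12 to 0.44. For RNase III with D.f. against D.f. they ran for Sqle -0.39 to 0.22, Idi1 -0.31 to 0.38, Lss -0.081 to 0.56, Srebf2 -0.32 to 0.0045, Srebf1 -0.16 to 0.12, Scap -0.092 to 0.058. For D.f. against PBS in the double knockout they ran for Srebf1 -0.27 to 0.088, Insig2 -1.5e-04 to 0.085. For double knockout against wild type with D.f. they ran for Lss -0.11 to 0.082, Insig1 -0.22 to 0.14. For D.f. against PBS in wild type of the knockout set they ran for Lss -0.055 to 0.078. For the interaction they ran for Srebf1 -0.36 to 0.030, Scap -0.023 to 0.094. Over both sets they ran for Fdft1 -0.082 to 0.46, Lss -0.21 to 0.20. Fits without 1 double-knockout D.f. library have 1 residual degree of freedom, and a group left with 1 library is assumed to vary like the others. Every call counted above for the interaction came from a fit with such a group. So did those for D.f. against PBS in the double knockout and for D.f. with RNase III against PBS. These calls are not read as changes. Over both sets, 1112 to 2425 genes in all were called with 1 library left out, beside 2252 of 14953 in the main fit.

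With 2 libraries per group, or 1, changes under about the interval widths given could not be told from the spread, and Idi1 is limited by its 26 to 68 reads. No paired analysis was possible because the groups compared share fewer than 2 replicate numbers. No group has more than 2 libraries, so single libraries were not screened as outliers.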
